A study of Homo sapiens with 12 samples.

Results

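The protein arginine methyltransferases are enzymes that place methyl groups on arginine residues of histones, RNA-binding proteins and other proteins. The 8 genes described here, PRMT1, PRMT2, PRMT3, CARM1, PRMT6, PRMT5, PRMT9 and PRMT7, are 8 of the 58302 genes listed in the files, of which 36305 were above 0 somewhere among the libraries. The family was chosen by the rise of PRMT6 under NUF2 knockdown in these data, so that rise is given as a description, and the question asked of the other 7 members was whether they shared it. mRNA was sequenced from 769-P and ACHN, human cell lines labelled as clear cell renal cell carcinoma (ccRCC), 48 h after transfection with siRNA against NUF2 (si-NUF2) or with control siRNA (si-NC). NUF2 is a subunit of the Ndc80 complex, which ties kinetochores to spindle microtubules in mitosis. Each of the 4 groups had 3 replicates, which gave 12 libraries, every one of them from transfected cells. In the study si-NUF2 stands for 2 siRNAs against NUF2, and each line is a single cell line, so the values describe these 2 lines and this reagent. The study grew the 2 lines in different media, so differences between lines and between media cannot be told apart. The sources used here do not say whether replicates were separate cultures, so p-values measure the spread between these libraries, which may be technical. In whole cultures, fewer cells that use a gene and less mRNA per cell cannot be told apart.

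All members take their methyl groups from S-adenosylmethionine, and they are sorted by the product they leave. Type I enzymes (PRMT1, PRMT3, CARM1, PRMT6 and, with weak activity, PRMT2) make asymmetric dimethylarginine, type II enzymes (PRMT5 and PRMT9) make symmetric dimethylarginine, and PRMT7, the type III enzyme, stops at monomethylarginine. PRMT6 is a nuclear enzyme best known for the asymmetric mark on arginine 2 of histone H3, a mark that opposes trimethylation of the neighbouring lysine at promoters.

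The labels were checked by NUF2 itself, which was at 3.68 FPKM with si-NUF2 against 18.3 FPKM with si-NC for 769-P and at 3.85 against 13.8 FPKM in ACHN cells (means of n = 3 libraries), with no overlap between the groups in either line. FPKM are fragment counts divided by exon length and by the size of the library. The recovered reads ran from 29244018 to 38864846 per library. Of the 7 genes examined as renal epithelial markers, 6 (PAX8, PAX2, KRT8, KRT18, CDH2 and VIM) were expressed in every library. Several of these, such as VIM, are not particular to renal epithelium. The remaining gene, CA9, which is characteristic of ccRCC, stayed between 0 and 0.121 FPKM in both lines. The 3 leukocyte, 3 endothelial and 3 fibroblast markers stayed at or below 0.0953 FPKM in every library. Same-numbered libraries of a line deviated from their group means together, with correlations across genes of 0.19 to 0.359 for 769-P and 0.46 to 0.735 for ACHN, so a fit blocked on the replicate number is given where it changes a call or a count by more than 1.5 times.

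The DNA in front of 3 members is shown because it sets PRMT6, the member that chose the family, beside the most abundant member and the main type II enzyme. Each run holds the 250 bases before the gene's start in RefSeq (assembly GRCh38.p14), read 5′ to 3′ on the strand of the gene, with matches to 3 short promoter motifs in capitals. The motifs were the CCAAT box (CCAAT), the GC box (GGGCGG) and the TATA box (TATAAA), searched on both strands, so that ATTGG also marks a CCAAT box.
PRMT6 (chr1:107056424-107056673, forward strand): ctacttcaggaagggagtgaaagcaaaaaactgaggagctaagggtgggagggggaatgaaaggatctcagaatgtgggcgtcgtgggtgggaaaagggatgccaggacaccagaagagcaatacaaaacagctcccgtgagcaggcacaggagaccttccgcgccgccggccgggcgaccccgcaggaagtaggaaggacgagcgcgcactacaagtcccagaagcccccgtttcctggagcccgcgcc
PRMT1 (chr19:49677021-49677270, forward strand): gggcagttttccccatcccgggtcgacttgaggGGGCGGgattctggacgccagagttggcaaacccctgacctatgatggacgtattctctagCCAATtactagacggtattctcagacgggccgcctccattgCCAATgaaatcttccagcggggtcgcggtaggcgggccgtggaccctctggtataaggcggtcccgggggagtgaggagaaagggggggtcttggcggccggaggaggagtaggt
PRMT5 (chr14:22929377-22929626, reverse strand): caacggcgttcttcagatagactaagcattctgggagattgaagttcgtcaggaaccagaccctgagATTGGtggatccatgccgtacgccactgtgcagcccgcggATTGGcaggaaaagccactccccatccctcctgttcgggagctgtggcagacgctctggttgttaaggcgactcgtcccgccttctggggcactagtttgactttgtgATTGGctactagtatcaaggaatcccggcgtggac

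The PRMT6 window held none of the 3 motifs, the PRMT1 window held 2 CCAAT boxes and 1 GC box, and the PRMT5 window held 3 CCAAT boxes. No match overlapped another in these windows. All 8 members had an entry in RefSeq, 10 entries in all, and 6 members had a GC box in at least 1 entry, 2 had a CCAAT box and 0 had a TATA box. Of 35116 promoter windows of the same length over all genes, 42.6% held a GC box, 32.0% a CCAAT box and 10.7% a TATA box. Bases G and C made up 60.4% of the PRMT6 window, 61.2% of the PRMT1 window and 55.6% of the PRMT5 window, near the median of 58% over all windows. A match or its absence describes the letters in this window only, and nothing was measured at these promoters.

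The family was expressed in both lines, with a range of levels that was wide between members. In si-NC cells PRMT1, the enzyme that makes most of the asymmetric dimethylarginine of mammalian cells, was the highest at 57.0 ± 6.82 FPKM for 769-P and 44.7 ± 3.28 FPKM for ACHN (SD over 3 libraries, as in all values given with ±). CARM1, a coactivator of nuclear receptors that methylates histone H3, followed at 19.7 ± 2.53 and 19.8 ± 7.35 FPKM. PRMT5, the catalytic subunit of the methylosome that prepares Sm proteins for spliceosome assembly, came next at 13.6 ± 1.31 and 14.7 ± 0.973 FPKM. PRMT9, which methylates the splicing factor SF3B2, was the lowest at 1.88 ± 0.114 and 1.69 ± 0.0422 FPKM. In 769-P cells with si-NC, PRMT6 (10.1 ± 1.23 FPKM) overlapped its neighbour PRMT2 (9.07 ± 0.984), a coactivator with weak activity, and PRMT2 overlapped PRMT3 (8.55 ± 0.392), the enzyme that methylates ribosomal protein RPS2. The other neighbours in that order were apart in every library. In ACHN cells with si-NC, CARM1 overlapped PRMT5, PRMT3 (4.93 ± 0.853) overlapped PRMT6 (4.01 ± 0.553), and PRMT6 overlapped PRMT7 (3.18 ± 0.454), though within each of these libraries the order was the same. PRMT8, the brain member of the family and not among the 8, was listed at 0 in all 12 libraries.

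**Figure D1:**
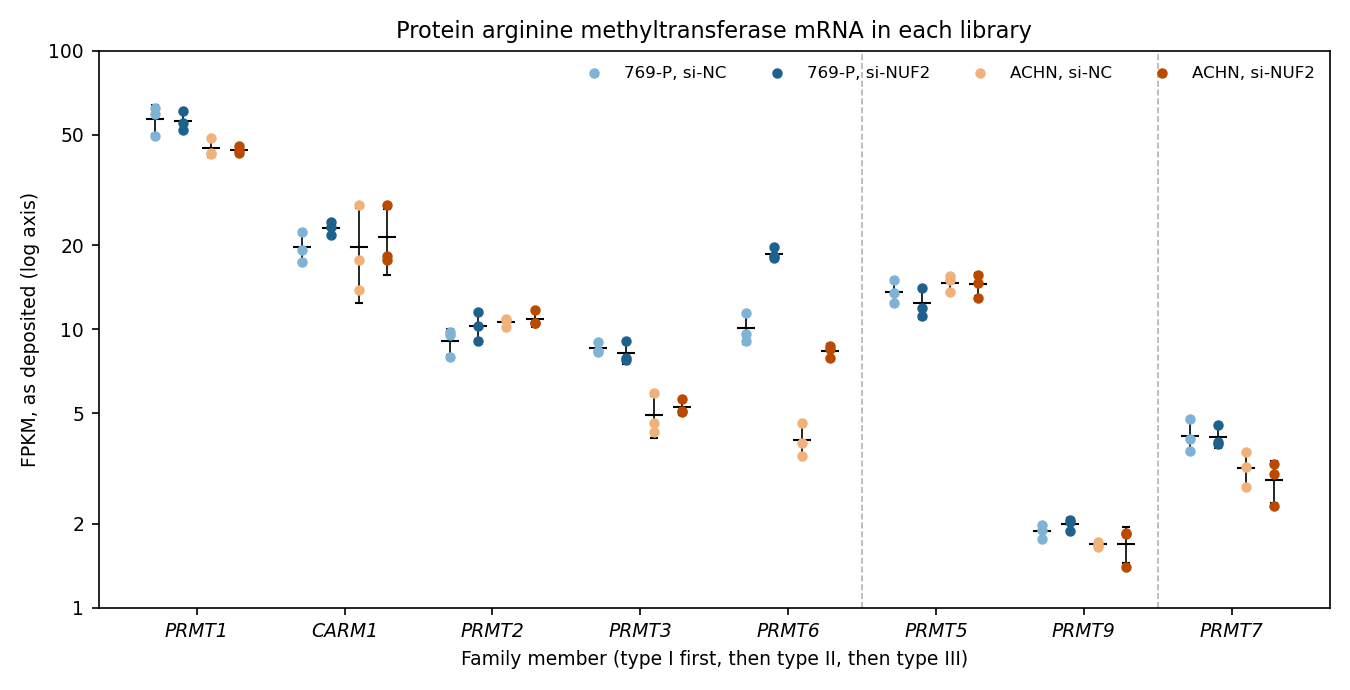
FPKM of the 8 family members on a log axis, with 1 point per library (n = 3 per group), a bar at the group mean and whiskers of 1 SD; dashed lines separate type I, type II and type III enzymes. The points of PRMT6 are apart between si-NUF2 and si-NC in both lines. Those of every other member overlap within a line, as is so for most genes tested.

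Levels between genes rest on the length by which each gene was divided, and this differs among the members. The values of 7 members were whole reads when multiplied by the length of all their annotated exons (GENCODE release 29), which reached 8031 bases for PRMT2 and 9458 bases for PRMT7, both with many transcripts. The PRMT6 gene spans chr1:107056679-107067636 (GRCh38, forward strand). Its values were not whole reads at the length of all its annotated exons. The shortest length found at which they were was 2616 bases, that of its protein-coding transcript. The single exon of this transcript runs from 107056679 to 107059294. The exons of all 3 annotated PRMT6 transcripts would give 4335 bases. Behind the levels stood 321 to 1510 reads per library for PRMT6, 7153 to 9160 for PRMT1 and 193 to 271 for PRMT9. Of the exon bases of CARM1, 19.89% are shared with YIPF2 on the opposite strand (median 10.8 FPKM), and 27.06% of those of PRMT5 are shared with its antisense gene PRMT5-AS1 (median 0.0373 FPKM). Whether counting used strand is not given in the sources used here, so reads from these overlaps cannot be told apart.

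PRMT6 was higher with si-NUF2 in both lines, and this is the value that chose the family. In 769-P cells PRMT6 was at 18.4, 19.7 and 18 FPKM with si-NUF2 and at 9.62, 11.4 and 9.11 FPKM with si-NC in replicates 1, 2 and 3. The ACHN libraries held 8.73, 8.53 and 7.90 FPKM against 3.91, 4.61 and 3.52 FPKM. Every si-NUF2 library lay above every si-NC library of its line. The ratio of the means was 1.86 for 769-P and 2.09 for ACHN, and the log2 fold change, here and below on the scale of log2(FPKM + 0.1), was 0.90 and 1.07. On that scale the pairs of same-numbered 769-P libraries were apart by 0.93, 0.78 and 0.97, and those of ACHN by 1.14, 0.87 and 1.14. Among the genes tested, this placed PRMT6 at rank 262 of 14155 from the highest log2 fold change in 769-P cells and at rank 87 of 15116 in ACHN cells. For scale, all 3 si-NUF2 libraries were above all 3 si-NC libraries for 16% of the genes tested in 769-P and for 7.86% in ACHN cells.

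The other 7 members did not pass the test in either line. All 7 passed the filter on low values in every fit, and 0 of 7 reached an adjusted p below 0.05 in 769-P cells (limma, Benjamini-Hochberg over all genes tested), where 9.98% of all 14155 genes tested did. With the replicate block 0 of 7 passed as well, where 27.5% of all genes did. In ACHN cells 0 of 7 passed, where 0% of all 15116 genes did (limma, while 1238 reached an unadjusted p below 0.05), and 0 of 7 passed with the block, where 12.2% of all genes did. Without the block, the count at an unadjusted p under 0.05 was also 0 of 7 in each line. With the block, the confidence intervals of the log2 fold changes of CARM1 (0.06 to 0.44) and PRMT2 (0.06 to 0.33) lay above 0 in 769-P cells. The intervals of the other members in 769-P cells, and of all 7 in ACHN cells, included 0 with the block. For each of the 7, the si-NUF2 and si-NC libraries overlapped in both lines. Overlap was the usual outcome, since the groups were apart for only 33.3% of all genes tested in 769-P and 14.3% in ACHN cells. Their log2 fold changes lay between -0.13 and 0.25 in 769-P cells (median 0, 4 of 7 positive, median of all genes -0.009) and between -0.13 and 0.15 in ACHN cells (median 0.01, 5 of 7 positive, median of all genes 0.006).

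**Figure D2:**
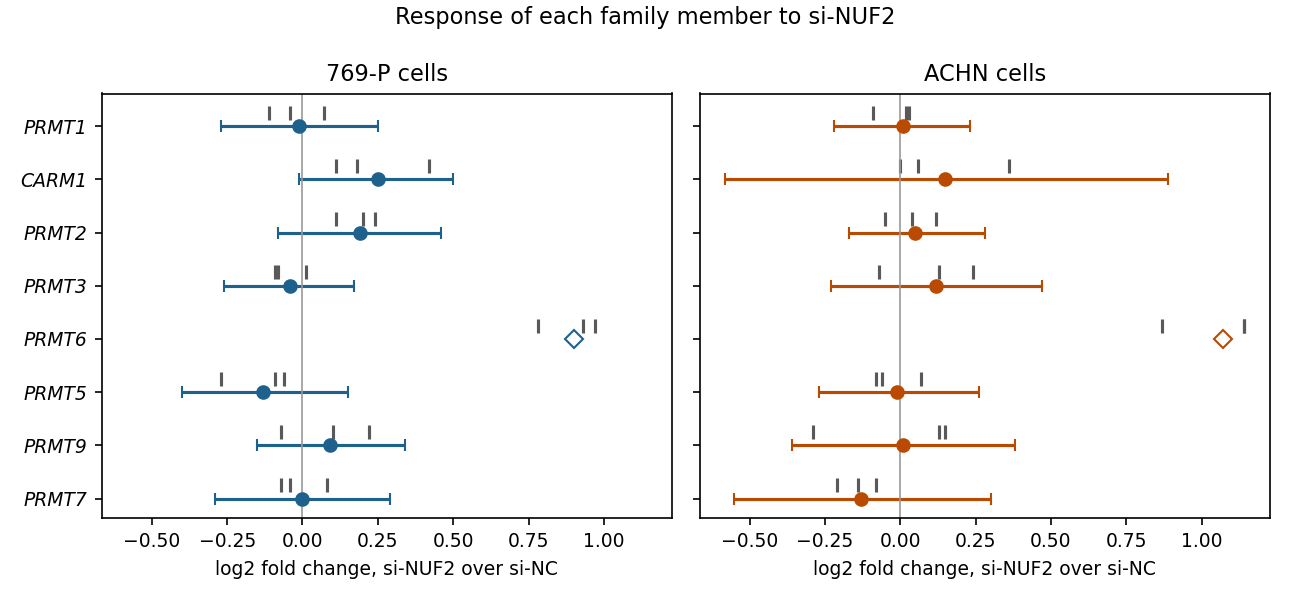
Log2 fold change of si-NUF2 over si-NC for each member in 769-P (left) and ACHN cells (right). Filled circles with bars are limma estimates with 95% confidence intervals, open diamonds mark PRMT6, which chose the family and is drawn without an interval, and short vertical ticks are the 3 differences between same-numbered libraries. PRMT6 lies at 0.90 and 1.07 and the other 7 between -0.13 and 0.25. The intervals drawn are from the fits without the replicate block, and all include 0. With the block, which is not drawn, those of CARM1 and PRMT2 in 769-P cells lie above 0.

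A missed threshold does not show that the 7 members stayed at 1 level, and their intervals give what the data leave room for. The 95% confidence intervals of the 7 log2 fold changes lay between -0.40 and 0.50 in 769-P cells and between -0.58 and 0.89 in ACHN cells. With the block they lay between -0.28 and 0.44 in 769-P and between -0.30 and 0.36 in ACHN cells. The highest of these bounds, 0.89, was that of CARM1 in ACHN cells without the block. PRMT6 chose the family and has an uncertainty of its own, so no test was made between its log2 fold change and these bounds.

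Among the type I enzymes, PRMT1 was at 60.9, 55.1 and 51.9 FPKM with si-NUF2 and 62.4, 59.3 and 49.4 FPKM with si-NC for 769-P, and at 45.5, 43.1 and 44.2 against 48.5, 42.5 and 43.1 FPKM in ACHN cells. All si-NUF2 values lay within the range of the si-NC values of their line, and the ratios of the means were 0.981 and 0.99. The 95% confidence intervals of its log2 fold change were -0.27 to 0.25 for 769-P and -0.22 to 0.23 for ACHN.

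CARM1 and PRMT2 had the largest positive values among the 7 in 769-P cells. CARM1 was at 24.2, 21.8 and 23.3 FPKM with si-NUF2 and at 22.4, 19.3 and 17.4 FPKM with si-NC. The si-NUF2 library was the higher one in 3 of 3 same-numbered pairs, but the lowest si-NUF2 library lay below the highest si-NC library. Its log2 fold change was 0.25 (standard error 0.108, 95% confidence interval -0.01 to 0.50, limma adjusted p = 0.191). With the block the interval was 0.06 to 0.44 and the adjusted p 0.0629 (range over all alternatives 0.0629 to 0.693). PRMT2 was at 9.11, 10.3 and 11.5 FPKM with si-NUF2 and at 7.94, 9.53 and 9.74 FPKM with si-NC, again higher in 3 of 3 pairs with overlapping groups. Its log2 fold change was 0.19 (standard error 0.115, adjusted p = 0.331 by limma). With the block the interval was 0.06 to 0.33 and the adjusted p 0.0528, and in 1 alternative, the 12 libraries in 1 fit with the block, it passed at 0.0346 (range over all alternatives 0.0346 to 0.652). That alternative was chosen after the data had been seen.

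In ACHN cells neither gene was higher with si-NUF2 in all 3 pairs. CARM1 was at 28.0, 18.4 and 17.7 FPKM with si-NUF2 and at 28.0, 17.7 and 13.8 FPKM with si-NC. Replicate 1 was the highest in both arms, and the libraries differed more between replicate numbers than between siRNAs. The log2 fold change of CARM1 was 0.15 with an interval of -0.58 to 0.89, which narrowed to -0.05 to 0.36 with the block. PRMT2 was at 10.5, 10.5 and 11.7 FPKM with si-NUF2 against 10.9, 10.2 and 10.8 FPKM with si-NC, with a log2 fold change of 0.05 (interval -0.17 to 0.28).

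PRMT3, the remaining type I enzyme, was at 9.08, 7.78 and 7.90 FPKM with si-NUF2 and 9.01, 8.29 and 8.36 FPKM with si-NC for 769-P. In ACHN cells it was at 5.07, 5.61 and 5.05 against 4.28, 5.89 and 4.6 FPKM. The groups overlapped in both lines, and the log2 fold changes were -0.04 and 0.12.

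Neither type II enzyme passed the test in either line. PRMT5 was at 14.1, 11.2 and 11.9 FPKM with si-NUF2 and 15.0, 13.5 and 12.4 FPKM with si-NC for 769-P, lower in 3 of 3 same-numbered pairs with overlapping groups. Its log2 fold change there was -0.13 (interval -0.40 to 0.15, adjusted p = 0.533 by limma). In ACHN cells PRMT5 was at 14.7, 15.7 and 13.0 FPKM against 15.5, 15.0 and 13.6 FPKM, with a log2 fold change of -0.01. PRMT9 was at 2.07, 2.04 and 1.88 FPKM against 1.76, 1.90 and 1.98 FPKM in 769-P and at 1.84, 1.85 and 1.4 against 1.65, 1.68 and 1.73 FPKM in ACHN cells. Its groups overlapped in both lines.

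PRMT7, the monomethylating enzyme, was at 4.53, 3.94 and 3.86 FPKM with si-NUF2 and 4.75, 4.04 and 3.66 FPKM with si-NC for 769-P. In ACHN cells it was at 3.03, 3.29 and 2.33 against 3.21, 3.63 and 2.72 FPKM, lower in 3 of 3 pairs with overlapping groups. The log2 fold change in ACHN cells was -0.13 (interval -0.55 to 0.30, adjusted p = 0.966 by limma), and in 769-P cells it was 0.

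The sum of the other 7 members was alike in the arms, while the share of PRMT6 was higher with si-NUF2. Without PRMT6 the FPKM of the members summed to 116 ± 6.78 with si-NUF2 and 114 ± 10.3 with si-NC for 769-P, and to 101 ± 6.89 and 99.6 ± 11.1 in ACHN cells (SD over 3 libraries), a difference smaller than the spread between replicates. PRMT6 made up 8.12% ± 0.878 of the sum of all 8 with si-NC and 13.9% ± 1.01 with si-NUF2 in 769-P cells. In ACHN cells its share was 3.89% ± 0.604 and 7.69% ± 0.268. PRMT6 thereby went from rank 4 to rank 3 of the family means in 769-P cells, above PRMT5, and from rank 6 to rank 5 in ACHN cells, above PRMT3. These shares contain the PRMT6 values that chose the family and are given with no test. Shares and ranks also rest on the lengths used, which fitted 2616 bases for PRMT6 and all annotated exons for the other 7. Division by the 4335 bases of all PRMT6 exons would lower its FPKM and shares, and could change its ranks.

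**Figure D3:**
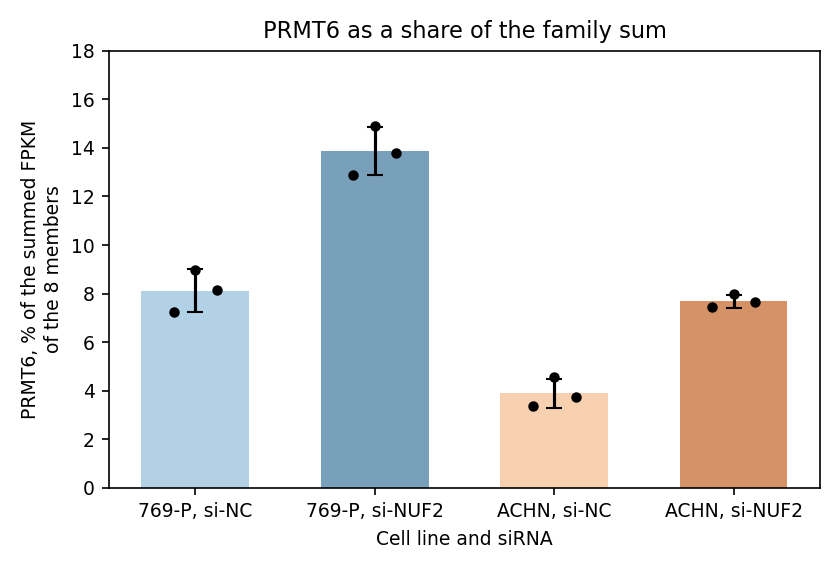
PRMT6 as a percent of the summed FPKM of the 8 members, with 1 point per library, bars at the group mean and whiskers of 1 SD (n = 3 per group). The mean share is 8.12% with si-NC and 13.9% with si-NUF2 for 769-P and 3.89% and 7.69% for ACHN.

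Whether the response differed between the lines was tested by an interaction term between line and siRNA over the 12 libraries. Of the 7 members 0 passed (limma, 0 of 7 also at an unadjusted p under 0.05), where 0% of all 16564 genes tested did and 776 had an unadjusted p under 0.05. With the block 0 of 7 passed, the lowest adjusted p being 0.345 for PRMT2 by limma (0.345 to 1 over all alternatives), where 251 of all genes did.

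Under si-NC the lines differed in PRMT6. The comparison between the lines did not enter the choice of the family. The si-NC values of PRMT6 did, since its rise was taken against them, so its p-value here is not free of that choice. ACHN cells held less PRMT6 than 769-P cells, with a log2 fold change of -1.34 (standard error 0.145, adjusted p = 0.000278 by limma), and the highest ACHN library (4.61 FPKM) lay below the lowest 769-P library (9.11 FPKM). PRMT3 was lower too (log2 fold change -0.83, standard error 0.142, limma adjusted p = 0.00216), at 4.28, 5.89 and 4.6 FPKM in ACHN against 9.01, 8.29 and 8.36 FPKM in 769-P cells. PRMT1 was lower with a log2 fold change of -0.38 (standard error 0.116, limma adjusted p = 0.0249). In all 3 of 8 members passed, all lower in ACHN cells, where 61.5% of all 15376 genes tested passed in either direction, so the share of the family is not above that of all genes. With si-NUF2, the PRMT6 level of ACHN cells (8.39 ± 0.433 FPKM) lay below that of 769-P cells with si-NC (10.1 ± 1.23 FPKM), with no overlap between the libraries.

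The call for PRMT1 rested on single libraries. It was lost without 769-P si-NC replicate 1 (log2 fold change -0.31, adjusted p = 0.0889), without 769-P si-NC replicate 2 (-0.35, 0.0921), without ACHN si-NC replicate 2 (-0.35, 0.0619) and without ACHN si-NC replicate 3 (-0.36, 0.0742), all by limma. PRMT7 (-0.41, adjusted p = 0.0605 by limma) passed without ACHN si-NC replicate 2 (-0.51, 0.0348), and ran from 0.0348 to 0.177 over all alternatives. PRMT2, CARM1, PRMT5 and PRMT9 did not pass, with log2 fold changes of 0.19, -0.08, 0.07 and -0.18.

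Genes that work with the family were followed in 8 lists of 37 genes: methylosome partners, supply of S-adenosylmethionine, regulators, substrates, readers and removers of the mark, enzymes of other families, and genes that PRMT6 is known to repress. In 769-P cells 7 of the 35 tested passed (20%), 4 higher and 3 lower, against 9.98% of all genes, and with the block 13 passed (37.1%), 7 higher and 6 lower, against 27.5%. In ACHN cells 0 of the 34 tested passed (limma, 3 at an unadjusted p under 0.05), and with the block 7 passed (20.6%), 5 higher and 2 lower, against 12.2%. The median log2 fold change over the lists was 0.01 in 769-P and 0.09 in ACHN cells, beside -0.009 and 0.006 over all genes. PADI4 and CDKN2A were too low to be tested in either line, and MTAP in ACHN cells, where it was listed at 0 in 5 libraries and at 0.00187 FPKM in the other.

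**Figure D4:**
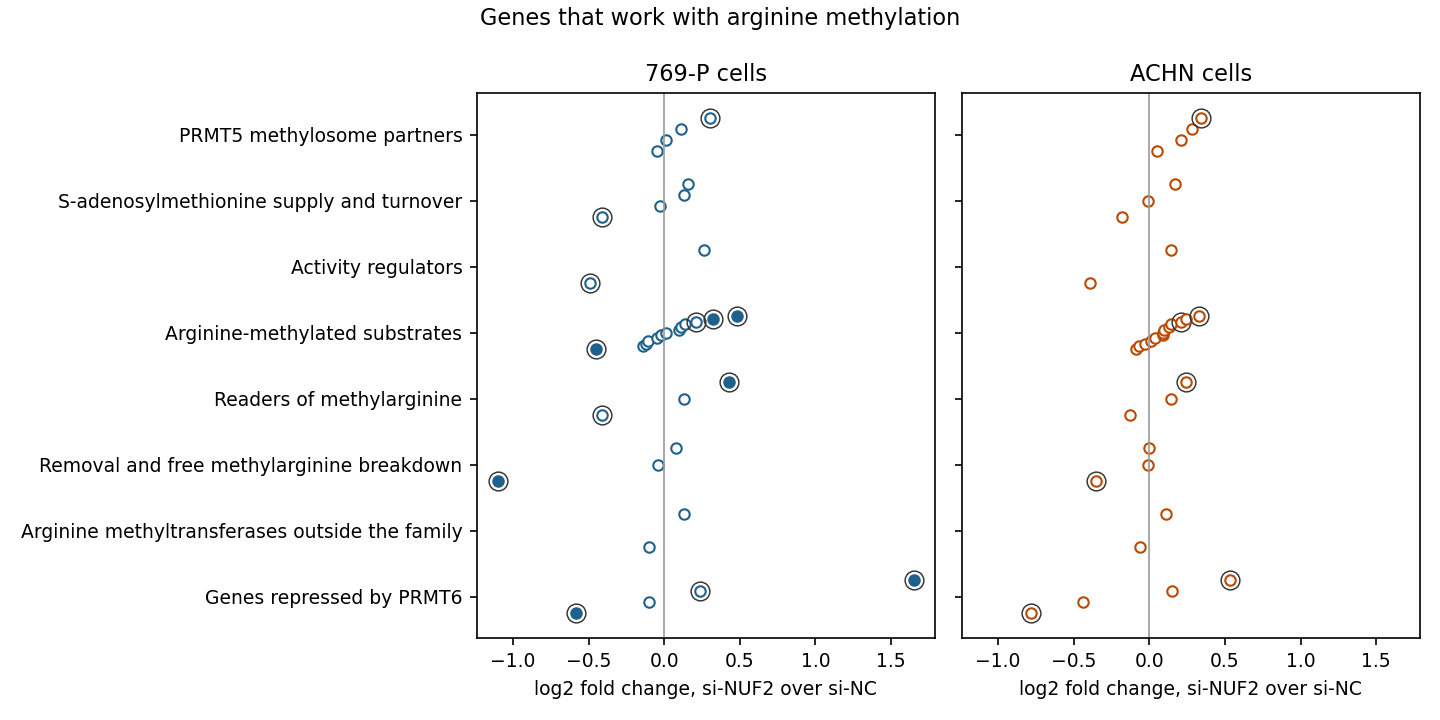
Log2 fold change of si-NUF2 over si-NC for each tested gene of the 8 lists in 769-P (left) and ACHN cells (right), 1 circle per gene. Filled circles passed an adjusted p under 0.05 from limma without the replicate block, and an outer ring marks genes that passed with it. DDAH1 (-1.10) and THBS1 (1.65) lie farthest from 0 in 769-P cells.

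Of the listed genes the one that fell most in 769-P cells was DDAH1, whose product breaks down the free asymmetric dimethylarginine that is released when methylated proteins are degraded. DDAH1 was at 7.39, 7.20 and 7.60 FPKM with si-NUF2 and at 15.1, 16.1 and 17.1 FPKM with si-NC for 769-P, with no overlap. Its log2 fold change was -1.10 (standard error 0.072, adjusted p = 0.00271 by limma), and it passed under every alternative (0.000437 to 0.0195). In ACHN cells DDAH1 was at 7.57, 12.8 and 9.58 FPKM against 9.26, 17.1 and 12.8 FPKM, lower in 3 of 3 pairs but with overlapping groups. The log2 fold change there was -0.35, with an adjusted p of 0.875 without the block and 0.0254 with it, both by limma (0.00827 to 1 over all alternatives). DDAH2, its paralogue, had log2 fold changes of 0.08 and 0, and JMJD6, a proposed demethylase, -0.04 and -0.01.

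Of the 5 genes listed as repressed by PRMT6, 4 were tested, and they did not move in 1 direction. THBS1, an inhibitor of blood vessel growth, was at 39.6, 28.7 and 37.9 FPKM with si-NUF2 and at 14.2, 10 and 9.79 FPKM with si-NC for 769-P, a log2 fold change of 1.65 (standard error 0.184, adjusted p = 0.00588 by limma, 0.000659 to 0.0487 over all alternatives). In ACHN cells THBS1 was at 184, 474 and 331 FPKM against 117, 356 and 237 FPKM, higher in 3 of 3 pairs with overlapping groups (log2 fold change 0.53, adjusted p = 0.911 without and 0.0167 with the block, 0.0167 to 1 over all alternatives, limma). CDKN1B, the cell cycle inhibitor p27, was at 11.6, 11.8 and 11.2 FPKM with si-NUF2 and 14.6, 18 and 20 FPKM with si-NC for 769-P, a log2 fold change of -0.58 (standard error 0.114, adjusted p = 0.0263 from limma), and in ACHN cells it was at -0.44 with overlapping groups and did not pass. CDKN1A, the inhibitor p21, was at -0.10 on the log2 scale for 769-P cells. In ACHN cells CDKN1A was at 141, 100 and 59.6 FPKM with si-NUF2 against 281, 141 and 112 FPKM with si-NC, lower in 3 of 3 pairs with overlapping groups (log2 fold change -0.78, adjusted p = 0.766 without and 0.0189 with the block, 0.00504 to 1 over all alternatives, limma).

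Among 13 proteins known to carry methylarginine, 3 passed in 769-P cells (23.1%). TAF15, an RNA-binding protein, was at 48.1, 45.6 and 40.8 against 33.9, 32.5 and 30.3 FPKM (log2 fold change 0.48, standard error 0.086, limma adjusted p = 0.0199). SMARCC1, a chromatin remodelling subunit that CARM1 methylates, was at 15.1, 16.3 and 16.4 against 12.7, 13.4 and 12.3 FPKM (0.32, standard error 0.07, limma adjusted p = 0.0354). In both the groups did not overlap, as was so for 33.3% of all genes tested in 769-P cells. In ACHN cells TAF15 and SMARCC1 had log2 fold changes of 0.21 and 0.33 and passed with the block only, at 0.044 and 0.0207 (0.0157 to 0.97 and 0.00796 to 0.888 over all alternatives, limma). PABPC1, the poly(A)-binding protein, passed with the block only in 769-P cells (0.21, adjusted p = 0.0187, 0.00863 to 0.283 over all alternatives, limma), and was at 0.13 for ACHN. The Sm protein genes SNRPB, SNRPD1 and SNRPD3, classical substrates of PRMT5, were at log2 fold changes of -0.14, -0.02 and -0.12 for 769-P, with overlapping groups, and of 0.04, 0.24 and 0.14 for ACHN. In ACHN cells every si-NUF2 library lay above every si-NC library for SNRPD1 and SNRPD3, as was so for 7.86% of all genes tested there. None of the 3 passed in either line with or without the block, the lowest adjusted p being 0.0743 for SNRPD1 in ACHN cells with the block (0.0424 to 0.969 over all alternatives, limma).

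Of the readers, SND1, a Tudor protein that binds symmetric dimethylarginine, was at 45.4, 42.4 and 46.5 FPKM with si-NUF2 against 36.8, 32.6 and 31.2 FPKM with si-NC for 769-P (log2 fold change 0.43, standard error 0.086, adjusted p = 0.0286 by limma). In ACHN cells SND1 was at 63.0, 58.7 and 55.8 against 57.6, 50.2 and 44.7 FPKM (0.24, passing with the block only at 0.044, 0.044 to 0.97 over all alternatives, limma). TDRD3, a reader of the asymmetric mark, passed with the block only in 769-P cells (-0.41, 0.0268, 0.0262 to 0.187 over all alternatives, limma), and was at -0.13 for ACHN. Calls without the block in 769-P cells for TAF15, SMARCC1, SND1 and CDKN1B were each lost when some single libraries were left out, with adjusted p of at most 0.0675, 0.121, 0.0958 and 0.0917 (limma). Each of these calls was lost without si-NC replicate 2, without si-NC replicate 3 and without si-NUF2 replicate 2. Leaving out si-NUF2 replicate 3 ended those of SMARCC1, SND1 and CDKN1B, leaving out si-NUF2 replicate 1 those of TAF15, SMARCC1, SND1 and CDKN1B, and leaving out si-NC replicate 1 that of SMARCC1. The call of CDKN1B was also lost in the fit of all 12 libraries (adjusted p = 0.36, limma), and those of SMARCC1, SND1 and CDKN1B without a filter on low values (0.0569, 0.0647 and 0.0647, limma). The calls of DDAH1 and THBS1 held under every alternative.

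Few partners and suppliers of the family passed the test, and none without the block. Of the 4 methylosome partners, COPRS, which directs PRMT5 to histone H4, was at 38.6, 31.9 and 33.5 FPKM with si-NUF2 against 32.2, 27.3 and 25.5 FPKM with si-NC for 769-P and at 57.0, 45.5 and 50.9 against 45.5, 37.0 and 40.1 FPKM in ACHN cells. It was higher in 3 of 3 pairs in both lines with overlapping groups (log2 fold changes 0.30 and 0.34) and passed with the block only, at adjusted p of 0.0162 and 0.0171 (0.00426 to 0.333 and 0.0061 to 0.964 over all alternatives, limma). MAT2A, which makes S-adenosylmethionine, passed with the block only in 769-P cells (-0.41, adjusted p = 0.00735, 0.00395 to 0.412 over all alternatives, limma), at 79.7, 94.1 and 71.7 FPKM against 99.7, 131 and 98.4 FPKM. BTG1, an activator of PRMT1, did so as well (-0.49, 0.0181, 0.0181 to 0.684, limma). In ACHN cells MAT2A and BTG1 were at -0.18 and -0.39 and did not pass with or without the block. Of the arginine methyltransferases outside the family, NDUFAF7 was at 0.13 and 0.11 on the log2 scale for 769-P and ACHN, METTL23 at -0.10 and -0.06, and neither passed in either line.

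The genes most like PRMT6 over the 12 libraries lay outside the family. Likeness was the root mean square difference in log2(FPKM + 0.1), with each gene centred on its own mean over the 12 libraries, among 12937 genes that passed the filter in both lines. The nearest was CDK16, a cyclin-dependent kinase, at 0.139, with means of 38.9 and 22.6 FPKM with si-NUF2 and si-NC in 769-P and of 15.9 and 9.22 FPKM in ACHN cells. PRDX4, a peroxiredoxin of the endoplasmic reticulum, was next at 0.175, and the 5 nearest also held PLXNA1, a semaphorin receptor, at 0.198, and EXTL3, a heparan sulfate glycosyltransferase, at 0.199. Within the family PRMT3 was nearest, at 0.553 and rank 1294, and PRMT5 farthest, at 0.886, where the median over all genes was 0.835. This measure holds the difference between the lines as well as the response to si-NUF2. PRMT3 had log2 fold changes of -0.04 and 0.12 with si-NUF2 in 769-P and ACHN cells, and of -0.83 between the lines under si-NC. The 5 nearest genes were picked for their likeness, the libraries share their line and siRNA, and no test was made.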

How the data were processed

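RNA from 12 libraries of 769-P and ACHN cells was sequenced on an Illumina NovaSeq by the authors, who filtered reads with fastp. Per the submitters' processing notes, HISAT2 2.0.5, featureCounts 1.5.0-p3 and hg38 were used, and the authors deposited 1 FPKM value per gene and library. The authors called changed genes with DESeq2. The annotation release and the strand setting are not given in the sources used here. After multiplication by GENCODE release 29 exon lengths, found for 58039 identifiers, 96.6% to 96.9% of values under 200 reads came within 0.05 of a whole read, which gave 29244018 to 38864846 reads per library. Replicates were not copies of each other (chi-square per gene at least 14.34).

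FPKM were rescaled by a trimmed mean of log ratios (30% and 5% trimmed), and log2(FPKM + 0.1), which understates the change of low genes, was fitted with limma 3.58.1 in R 4.3.3 (lmFit, then eBayes with trend), using genes at 0.5 FPKM or more in 3 libraries of the fit. p-values were adjusted by Benjamini-Hochberg over all genes tested, and calls were made under 0.05. Scripts in Python 3.11.15 (pandas 2.3.3, NumPy 2.4.6, matplotlib 3.10.9) made tables and figures, and the fits were tested on simulated data. An exact permutation test of 3 libraries against 3 cannot go below p = 0.1 and was not used.

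Whether replicate numbers pair the libraries was judged from the correlation across genes of deviations from group means: every same-numbered pair exceeded 0.1 within each line, but not between the lines. The labels carry the numbers, and what a number stands for is not given.

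The members, the 8 lists and the tests were chosen with earlier results of these data known. Named were all members, each listed gene called with or without the block in either line or else the largest change of its list, and the 5 genes nearest to PRMT6. Other genes are named as examples, chosen after their values were seen. Alternatives were median-ratio scaling, no rescaling, pseudocounts of 1 and 0.01, no filter, at least 1 FPKM in every library, the block, each library left out, and the 12 libraries in 1 fit. The last together with the block was added after the data had been seen. Protein sequences were not used here. Values of some named genes are not reported here.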

Additional observations from a re-analysis of the deposited data

Results flagged for a closer look

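For 4 genes of the lists, the response to si-NUF2 was flagged, either by the interaction or by the signs of the same-numbered differences. The response of DDAH1 in ACHN cells less that in 769-P cells was 0.75 on the log2 scale (fall of 1.10 against 0.35), and that of THBS1 was -1.12 (rise of 1.65 against 0.53), each in the same direction in 3 of 3 pairs of both lines. Their interaction passed in the blocked fit (limma adjusted p = 0.0285 and 0.0343, where 251 of 16564 genes passed) and in that fit alone, being 1 for both without the block. CLNS1A, the chaperone pICln of the methylosome, was flagged because its same-numbered differences had opposite signs in the lines, at -0.12, -0.01 and -0.05 for 769-P and 0.14, 0.09 and 0.34 for ACHN. The difference in its response was 0.26 (limma adjusted p = 1 without the block, 0.149 with it). MAT2B, the regulatory subunit that pairs with MAT2A, was flagged for the same reason in the other direction, with a difference of -0.13 (limma adjusted p = 1 without the block, 0.238 with it). Thus for CLNS1A and MAT2B the lines were not shown to differ. How many of all genes had such opposite signs is not given here.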

How the results depend on the processing

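In 769-P cells 0 of the 7 members passed under every alternative except the 12 libraries in 1 fit with the replicate block, where 1 did, PRMT2, and in ACHN cells 0 of 7 passed under every alternative. The log2 fold change of PRMT6 kept its sign throughout, at 0.83 to 1.00 for 769-P and 0.92 to 1.17 for ACHN. Counts over all genes moved more. For 769-P they fell from 1412 to 635 without a filter and to 700 with the 12 libraries in 1 fit, lay between 357 and 1144 with single libraries left out, and rose to 3898 with the replicate block and 4552 with both. The listed genes went from 7 to 4 without a filter, 2 to 6 with single libraries left out, 13 with the block and 15 with the block in 1 fit. For ACHN 0 genes passed in the fit of that line alone, 171 in 1 fit, 1843 with the block and 2490 with both, and 0, 7 and 10 of the listed genes passed in that line's own fit, with the block and with both. Between the lines under si-NC, 9461 genes fell to 6278 with at least 1 FPKM in every library, and 2 to 3 members passed with single libraries left out. The pairing check did not hold between the lines (-0.0569 to 0.0429), where the block gave 9146 genes. For the difference in response 0 genes became 2 with a pseudocount of 0.01, 15 without a filter, 251 with the replicate block and 0 to 1 with single libraries left out. No called result changed direction. Precision was limited by the spread between 3 replicates and, for PRMT9, by 193 to 271 reads.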
